A study of Mus musculus with 4 samples.

Results

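The genes described here are 9 transcripts that rise in many tissues after glucocorticoid exposure or acute stress, namely Sgk1, Ddit4, Zbtb16, Fkbp5, Tsc22d3, Errfi1, Cdkn1a, Nfkbia and Plin4. They were picked by symbol from the table of genotype means, which lists 15818 genes, and all 9 were in it. The study profiled olfactory bulb RNA in 4 libraries, with 2 for Unc80 S/S (labelled unedited) and 2 for Unc80 G/G (labelled edited). Unc80 encodes a large subunit of the NALCN sodium leak channel complex, and its transcript carries a serine codon that A-to-I editing recodes to glycine. In Unc80 G/G mice the genome itself encodes the glycine (AGC changed to GGC), and in Unc80 S/S mice the codon is replaced by another serine codon that cannot be edited (AGC changed to TCC). Both alleles were made by CRISPR/Cas9 in zygotes of B6D2F1 donors, so both genotypes carry engineered bases and neither is a wild-type control. The mice were adult males, and each library was a pool of several mice, so that the spread between libraries is a spread between pools. The odor, handling and time of day before the bulbs were taken are not given for these libraries in the sources used here.

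Glucocorticoids such as corticosterone enter cells and bind the glucocorticoid receptor Nr3c1, which is held in the cytosol by Hsp90 and its co-chaperones. The bound receptor moves to the nucleus and binds glucocorticoid response elements (GREs), and some of the genes it switches on, Fkbp5 among them, dampen the signal again. Many of the same genes also answer to other stress inputs, for example p53 at Cdkn1a, NF-kB at Nfkbia and the integrated stress response at Ddit4.

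Promoter windows of 4 of the genes are shown first. Those of Sgk1, Nfkbia and Cdkn1a hold motifs known for the inputs above. That of Errfi1 holds an element bound by CREB, an input not named above. RefSeq promoters (GRCm38.p6) run from 250 bases before to 50 bases after a transcription start, and 8 of the 9 genes had at least 1, with 17 promoters between them. Zbtb16 was not matched. The GRE searched was AGAACA and TGTTCT with 3 bases of any kind between them, on both strands, which 3 of 32851 promoters held (0.0091%), and the promoter of Sgk1 that held it was 1 of these 3. The CRE searched was TGACGTCA, the element bound by CREB, which 1.7899% of promoters held and which stood in Errfi1 51 bases before a start, followed by a TATAAA box (13.616% of promoters). The NF-kB consensus stood in 8.4594% of promoters, among them those of Nfkbia, Plin4 and Tsc22d3. The p53 consensus with 1 mismatch allowed stood in 0.0883% of promoters, among them that of Cdkn1a. The last 2 motifs were added after the sequences had been read. The windows below, written 5′ to 3′ on the strand of the gene with the motifs in capitals, lie outside annotated exons.
Sgk1, GRE, chr10:21993681-21993735, plus strand: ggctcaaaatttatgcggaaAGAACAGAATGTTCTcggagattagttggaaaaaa
Errfi1, CRE and TATA box, chr4:150854999-150855057, plus strand: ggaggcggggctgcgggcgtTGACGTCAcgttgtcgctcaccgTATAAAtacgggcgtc
Nfkbia, NF-kB consensus, chr12:55492648-55492696, minus strand: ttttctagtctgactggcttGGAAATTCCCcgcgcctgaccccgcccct
Cdkn1a, p53 consensus, chr17:29090908-29090967, plus strand: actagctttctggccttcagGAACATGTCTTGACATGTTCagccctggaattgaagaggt

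The Sgk1 and Errfi1 windows lie inside the annotated spans of these genes, before internal starts, and those of Nfkbia and Cdkn1a lie just upstream of the annotated genes. A single arm of the GRE, TGTTCT, which overlaps the full element, stood in 18.9735% of promoters and in those of Sgk1 and Tsc22d3. The shorter core TGACG, which overlaps the CRE, stood in 20.8122% of promoters and in those of Errfi1, Sgk1 and Tsc22d3. The E-box CACGTG (7.1505% of promoters) stood in Fkbp5 and Sgk1. TGAGTCA, bound by AP-1 (5.2023%), and a single fixed NF-kB site of 10 bases (0.1552%) stood in none of the 17. These matches describe letters in the windows and say nothing of binding in these bulbs.

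The levels come as the authors' mean of each genotype in CPM, reads of a gene scaled to the library total, with no value per library. To compare the genes with each other, the means were divided by the exon length of each gene in kilobases, from the union of its annotated exons. That union can be longer than any transcript present, which places genes with many annotated transcripts lower. Fkbp5 has 15 annotated transcripts and 9468 exon bases, and Ddit4 has 1 and 1755. Which transcripts were present was not tested. On that scale Cdkn1a and Ddit4 stood highest, with means over both genotypes of 22.1 CPM per kb for either gene, followed by Tsc22d3 at 12.1 CPM per kb. Nfkbia stood at 9.61 CPM per kb, Errfi1 at 8.35 CPM per kb and Sgk1 at 6.32 CPM per kb. Zbtb16 followed at 5.95 CPM per kb, Fkbp5 at 4.70 CPM per kb and Plin4 at 0.309 CPM per kb. Plin4 was thus far below the other 8 genes, and it was the only one under 5 CPM before division by length. Either genotype gave the same order, except that Cdkn1a and Ddit4 changed places, as did Sgk1 and Zbtb16. Whether such neighbours differ beyond their spread was not tested, since of the 9 genes only Ddit4 and Plin4 have values per library.

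**Figure D1:**
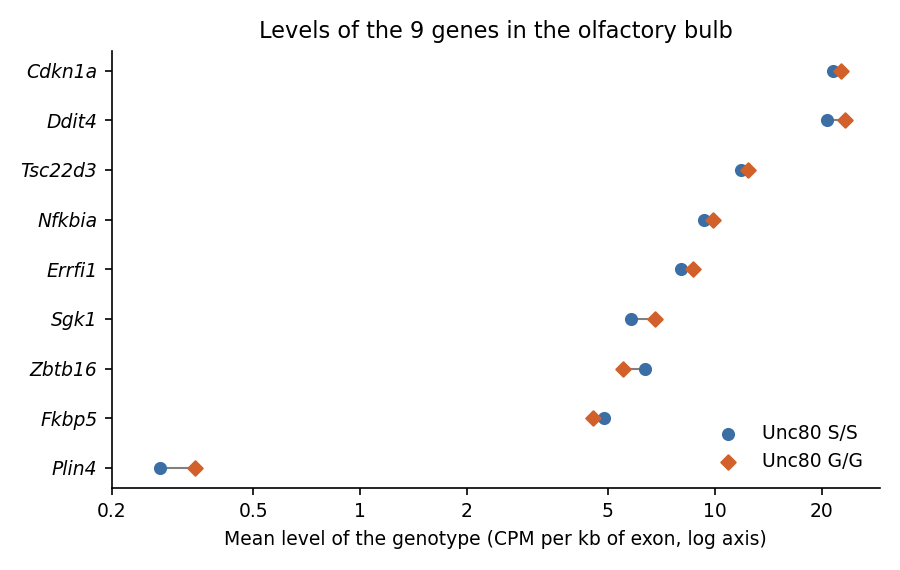
Mean level of each of the 9 genes in CPM per kb of exon (log axis), with a circle for the Unc80 S/S mean and a diamond for the Unc80 G/G mean, each the authors' mean of 2 libraries. Cdkn1a and Ddit4 lie near 22.1 CPM per kb and Plin4 near 0.309 CPM per kb, and the genotypes lie close together for every gene.

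Between the genotypes the 9 genes differed little. The mean was higher in Unc80 G/G for 7 genes and lower for 2, Zbtb16 and Fkbp5, where 47.2% of all 15818 genes were higher. Plin4 alone was past 1.2-fold, where 5.74% of all genes were past it in either direction. Added after the values were seen, a limit of 1.1-fold was passed by 4 genes (Plin4, Sgk1 and Ddit4 higher in Unc80 G/G, Zbtb16 lower), where 18.1% of all genes passed it, 9.57% upward and 8.49% downward. Low genes pass such limits more often. Among the 12508 genes whose mean over both genotypes reached 5 CPM, 9.15% passed 1.1-fold, and so did 3 of the 8 genes here that reach that level. None of the 9 passed 1.5-fold, which 0.518% of all genes did. The median log2 ratio of Unc80 G/G over Unc80 S/S was 0.09 over the 9 genes and -0.01 over all genes, and the summed level was 317.9 CPM for Unc80 S/S against 330.3 CPM for Unc80 G/G. The genes were chosen with earlier results of these data known, so the counts are a description. In bulk tissue, fewer cells of a type and less RNA per cell cannot be told apart.

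Fkbp5 encodes FKBP51, the co-chaperone of Hsp90 that lowers the affinity of the glucocorticoid receptor for hormone (chr17:28399094-28517527 in GRCm38, minus strand). Its mean was 46.0 CPM for Unc80 S/S against 43.1 CPM for Unc80 G/G, a log2 ratio of -0.10 with an interval of -0.18 to -0.01. This interval, and those that follow, are 95% exact binomial intervals from the reads behind the 2 means, and they cover counting error only. Libraries of the same genotype spread more widely than counting error (below), so true intervals are wider. Of the genes with at least 5 CPM, 18.8% had a larger difference than Fkbp5.

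Among the genes that act on kinase and growth signalling, Sgk1 differed most. It encodes the serum- and glucocorticoid-regulated kinase, which keeps ion channels and transporters at the cell surface by acting on the ubiquitin ligase Nedd4l (chr10:21882184-21999903, plus strand). Its mean was 28.6 CPM for Unc80 S/S against 33.4 CPM for Unc80 G/G, a ratio of 1.17 and a log2 ratio of 0.23 (0.12 to 0.33), and 1.98% of genes with at least 5 CPM had a larger difference. Ddit4 encodes REDD1, an inhibitor of mTORC1 that works through the Tsc1 and Tsc2 complex (chr10:59949669-59951834, minus strand). Its mean was 36.5 CPM for Unc80 S/S against 41.0 CPM for Unc80 G/G, a log2 ratio of 0.17 (0.08 to 0.26), and 5.10% of such genes had a larger difference. Errfi1 encodes MIG6, which binds and inhibits EGFR-family receptors (chr4:150853919-150868892, plus strand). The Errfi1 means were 28.8 CPM for Unc80 S/S and 31.0 CPM for Unc80 G/G, a log2 ratio of 0.11 (0.01 to 0.21), and 14.6% of such genes had a larger difference. All 3 intervals lay above equality, that of Errfi1 by little.

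The transcription regulators and inhibitors of inflammation went both ways. Zbtb16 encodes PLZF, a zinc finger repressor (chr9:48654297-48836222, minus strand), and it had the most negative log2 ratio of the 9 genes. Its mean was 33.7 CPM for Unc80 S/S against 29.2 CPM for Unc80 G/G, a log2 ratio of -0.21 (-0.31 to -0.11), and 2.70% of genes with at least 5 CPM had a larger difference. Tsc22d3 encodes GILZ, a leucine zipper protein that binds and restrains NF-kB (chrX:140539528-140600659, minus strand). Its means were 51.4 CPM and 54.0 CPM, a log2 ratio of 0.07 (-0.01 to 0.15), and 30.4% of such genes had a larger difference. Nfkbia encodes IkB-alpha, which holds NF-kB in the cytosol (chr12:55489410-55492647, minus strand). Its means were 15.0 CPM and 15.9 CPM, a log2 ratio of 0.09 (-0.06 to 0.23), with a larger difference in 21.9% of such genes. For Tsc22d3 and Nfkbia the counting interval alone included equality, and the data do not show whether they differ. A counting interval that excludes equality does not show a difference either, since it leaves out the spread between libraries. This matters most for Fkbp5, Errfi1 and Cdkn1a, whose intervals end close to equality.

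Cdkn1a encodes p21, the inhibitor of cyclin-dependent kinases and a target of p53 (chr17:29090976-29100727, plus strand). It had the most reads of the 9 genes, with means of 76.4 CPM for Unc80 S/S against 80.6 CPM for Unc80 G/G. The log2 ratio was 0.08 (0.01 to 0.14), and 26.9% of genes with at least 5 CPM had a larger difference. An antisense gene on the other strand, AC167363.2, covers 7.684% of the exon bases of Cdkn1a, and whether the authors' counting used strand is not given in the sources used here. Plin4 encodes a perilipin that coats lipid droplets (chr17:56100591-56109803, minus strand). It had the largest ratio and the fewest reads, about 82 for Unc80 S/S and 100 for Unc80 G/G. Of all genes, 3.39% had a larger difference than Plin4, but only 7.01% had a lower level. That share is thus not comparable with those of the other genes, taken at 5 CPM or more. The Plin4 means were 1.58 CPM and 1.99 CPM, a ratio of 1.26 and a log2 ratio of 0.33 whose interval ran from -0.10 to 0.77. The single gene past 1.2-fold was therefore also the one the depth resolved least, and its interval included equality.

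**Figure D2:**
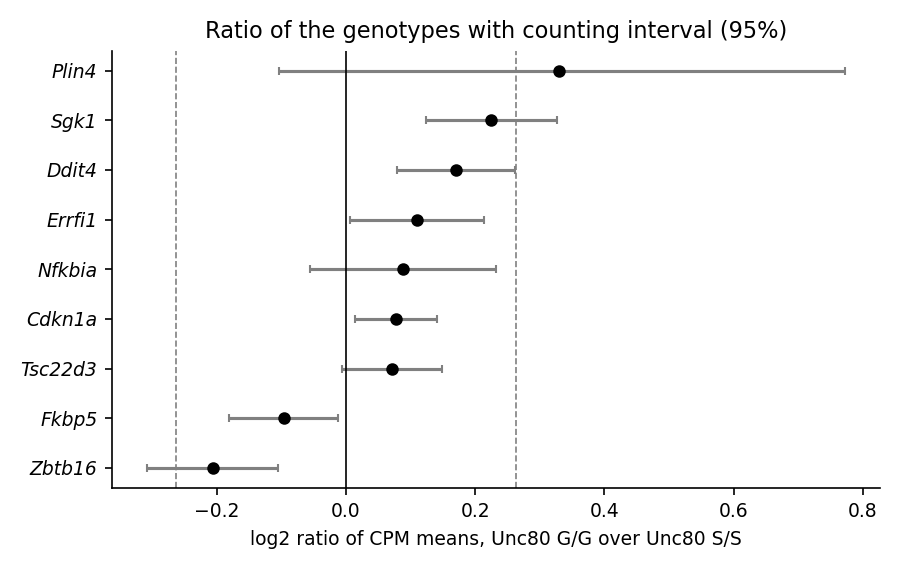
Log2 ratio of the CPM means, Unc80 G/G over Unc80 S/S, for the 9 genes, as points with the 95% counting interval as bars. Dashed lines mark 1.2-fold and the solid line equality. Intervals of 6 genes leave out equality and those of Plin4, Nfkbia and Tsc22d3 include it. The bars leave out the spread between libraries, so true intervals are wider.

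**Figure D3:**
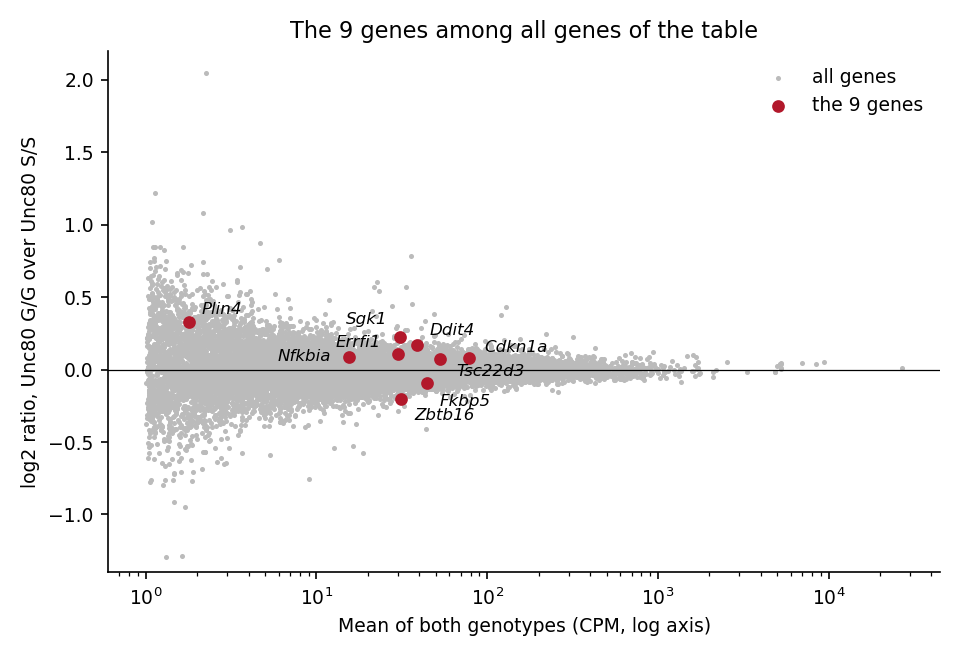
Log2 ratio of Unc80 G/G over Unc80 S/S against the mean of both genotypes (CPM, log axis) for all genes of the table (grey) and the 9 genes (red). The grey cloud narrows as the level rises, and Plin4 lies where it is wide, while Sgk1 (0.23) and Zbtb16 (-0.21) lie at its upper and lower edge.

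Values per library could be had for 2 of the 9 genes. A mean of 2 libraries in CPM can be split into whole reads of either library where only 1 pair of whole numbers gives it, which was so in both genotypes for 2221 genes (14.041% of the table), Ddit4 among them. Under a looser rule, added after seeing the data, 3310 genes could be split, which brought in Plin4. The recovered libraries are named by their number of counted reads and are not tied to a sample of the labels. Ddit4 had 957 and 928 reads in the Unc80 S/S libraries, which is 36.1 and 36.8 CPM. In the Unc80 G/G libraries it had 1121 and 935 reads, or 44.2 and 37.8 CPM. The genotypes did not overlap, as was so, with Unc80 G/G higher, in 17.8% of the 2221 genes, but the lower Unc80 G/G library lay close to both Unc80 S/S libraries. In edgeR's quasi-likelihood test over the 2221 genes the log2 fold change was 0.17 with an SE of 0.07 and an adjusted p of 0.926 (unadjusted p 0.0295), and without the Unc80 G/G library with more counted reads it was 0.05. That last fit leaves 1 Unc80 G/G library, which is assumed to vary like the Unc80 S/S libraries. Plin4 was split under the looser rule only, its means lying 1.87e-05 (Unc80 S/S) and 2.42e-05 (Unc80 G/G) reads from whole numbers. Its pairs of reads are thus the nearest ones and not exact. It had 46 and 36 reads in Unc80 S/S, or 1.74 and 1.43 CPM. It had 70 and 30 reads in Unc80 G/G, or 2.76 and 1.21 CPM, so the Unc80 G/G libraries lay on either side of both Unc80 S/S libraries. Its log2 fold change was 0.33 with an SE of 0.32 and an adjusted p of 0.986 in edgeR over the 3310 genes. Neither gene passed the threshold of 0.05, which 0.0900% of the 2221 genes tested with Ddit4 did (2 genes) and 0 of the 3310 genes tested with Plin4 (154 of these had an unadjusted p under 0.05 in edgeR). With 2 libraries against 2 an exact permutation test of a single gene cannot go below a two-sided p of 0.33, and all p-values here measure only the spread between these pools. No pair of whole reads gave the means of the other 7 genes within 1e-09 of whole numbers. They could not be split, so no test was made for them.

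**Figure D4:**
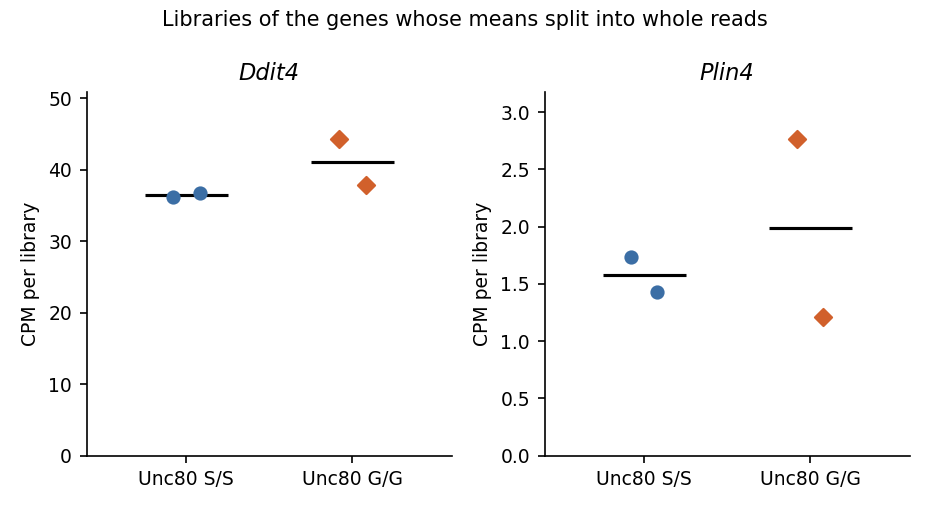
CPM of Ddit4 and Plin4 in each library (points) with the mean of the genotype (line). The Unc80 G/G libraries of Ddit4 stand at 44.2 and 37.8 CPM, above both Unc80 S/S libraries, and those of Plin4 at 2.76 and 1.21 CPM, on either side of them. The Plin4 values come from the looser rule.

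The spread between libraries gives a scale for the genes without values of their own. It comes from the minority of genes that could be split, 8.253% of those of 20 to 50 CPM, and whether the rest spread alike was not tested. In 737 split genes of 10 to 100 CPM, the libraries of a genotype differed by a median of 0.07 (Unc80 S/S) or 0.08 (Unc80 G/G) on the log2 scale, and the genotype means by 0.05. The 90th percentiles were 0.199 and 0.208 between the libraries of Unc80 S/S and of Unc80 G/G, and 0.146 between the genotype means. In size, Sgk1 (0.225) exceeded all 3 percentiles. Zbtb16 (-0.206) lay above that of the Unc80 S/S libraries and below that of the Unc80 G/G libraries, and Ddit4 (0.170) lay below both and above that of the genotype means. Errfi1, Fkbp5, Nfkbia, Cdkn1a and Tsc22d3 lay below all 3. By noise alone, single libraries differ more than means of 2 libraries do, so the library percentiles are too wide a scale for these ratios. A place below them thus does not show that Zbtb16 or Ddit4 lies within the noise of the means. Between libraries of 1 genotype the chi-square per gene was 2.07 for Unc80 S/S and 2.12 for Unc80 G/G, where counting error alone gives about 1.

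Of 23 listed genes for steroid receptors, chaperones, cofactors and steroid enzymes, 22 were in the table. In Unc80 G/G 6 were higher and 16 lower, where 47.2% of all genes were higher. Their median log2 ratio was -0.03 beside -0.01 over all genes. None of the 22 was past 1.2-fold, a count near the background of 5.74%. The glucocorticoid receptor Nr3c1 stood at 67.9 CPM for Unc80 S/S against 68.9 CPM for Unc80 G/G, and the mineralocorticoid receptor Nr3c2 at 48.7 and 47.8 CPM. The Hsp90 genes Hsp90aa1 and Hsp90ab1 had log2 ratios of -0.04 and -0.03.

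Most other glucocorticoid targets had a higher mean in Unc80 G/G. Of 24 in the table, 20 were higher in Unc80 G/G and 4 lower, where 47.2% of all genes were higher. Their median log2 ratio was 0.06. Past 1.1-fold were 8 of the 24 upward and 1 downward, where 9.57% of all genes were past it upward and 8.49% downward. Dusp1, a phosphatase that switches off MAP kinases, was the only one past 1.2-fold, with 19.5 CPM for Unc80 S/S against 25.2 CPM for Unc80 G/G (log2 ratio 0.37). Per1, a clock gene, had a log2 ratio of 0.19, and the Krüppel-like factors Klf9 and Klf15 had 0.11 and 0.05. The metallothionein Mt1, a common glucocorticoid target, had 0.08. Per1 and Dusp1 answer to neuronal activity as well as to glucocorticoids.

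Relatives and partners of the 9 genes had medians near 0. Of 15 family members in the table, 8 were higher and 7 lower in Unc80 G/G, where 47.2% of all genes were higher. Their median log2 ratio was 0.01 and turned to -0.00 among genes of at least 5 CPM. Nfkbid (3.08 and 3.72 CPM) was past 1.2-fold upward and Nfkbie (1.79 and 1.45 CPM) downward, both low and both named after their values were seen. Of all genes, 5.74% were past 1.2-fold in either direction. Sgk3, a kinase of the Sgk1 family, had a log2 ratio of 0.03. Of 23 direct partners, 12 were higher and 11 lower, again with a median of 0.01 that turned to -0.00 at 5 CPM or more. None of the 23 was past 1.2-fold, a count near the background of 5.74%. Past 1.1-fold were 4 upward (Erbb4, Erbb2, Rel and Pnpla2, named after their values were seen) and 0 downward. Of all genes, 9.57% were past it upward and 8.49% downward. Nedd4l, the ligase that Sgk1 acts on, had 0.02, and the Sgk1 substrates Ndrg1 and Ndrg2 -0.03 and -0.05. Of 17 genes of the p53, integrated stress and NF-kB responses, 13 were higher and 4 lower, beside the same 47.2% of all genes higher. Their median was 0.05. Trp53, the ligase gene Mdm2 and the p53 target Ccng1 had log2 ratios of -0.01, 0.04 and 0.03. Of these 17, Gadd45a (0.27) and Icam1 (-0.27) were past 1.2-fold, beside the same 5.74% of all genes, both under 5 CPM and named after their values were seen.

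**Figure D5:**
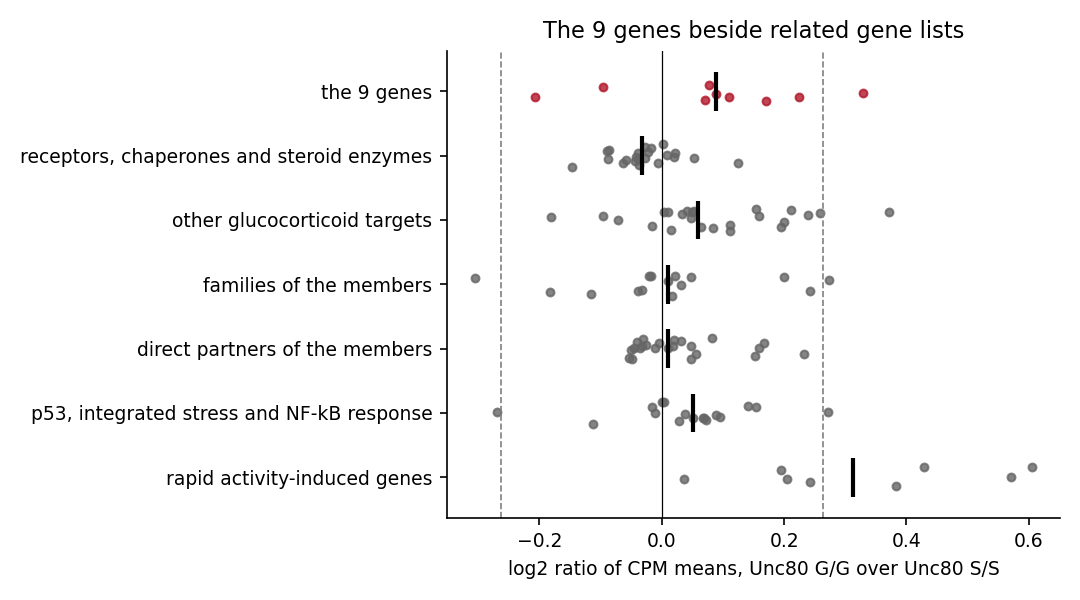
Log2 ratio of the CPM means, Unc80 G/G over Unc80 S/S, for the genes of 7 lists. Each point is a gene, black bars are list medians and dashed lines mark 1.2-fold. The median of the 9 genes (0.09) lies above that of the receptor list (-0.03) and below that of the rapid activity-induced genes (0.31).

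All 8 rapid activity-induced genes were higher in Unc80 G/G, where 47.2% of all genes were. Their median log2 ratio was 0.31, and their summed level was 576.5 CPM for Unc80 S/S against 707.1 CPM for Unc80 G/G. Junb, Fosb, Nr4a1 and Fos were past 1.2-fold, where 5.74% of all genes were past it in either direction. Their log2 ratios were 0.60, 0.57, 0.43 and 0.38, all larger than that of Sgk1. In the split reads Junb stood at 20.2 and 15.5 CPM in Unc80 S/S and 26.2 and 28.1 CPM in Unc80 G/G. The Unc80 G/G library in which Ddit4 was higher had the lower of these 2 close Junb values. Any relation between Junb and Ddit4 was not tested. Ier2, the other gene of this list that could be split, stood at 7.29 and 4.56 CPM for Unc80 S/S against 5.80 and 7.76 CPM for Unc80 G/G, and its genotypes overlapped. Of 6 choroid plexus markers 5 were found among the genes with a mean (Folr1 was not), and 4 of the 5 were higher in Unc80 G/G, with a sum of 8.74 CPM for Unc80 S/S against 12.8 CPM for Unc80 G/G, and Ttr had the largest log2 ratio (2.05, with all 5 under 5 CPM). Their part in the values of the 9 genes was not tested. Medians of the other marker lists lay between -0.06 and 0.04, from oligodendrocytes and pericytes to endothelium. Past 1.2-fold were 1 of 7 oligodendrocyte markers, Opalin (log2 ratio -0.35), and 1 of 6 pericyte and meningeal markers, Acta2 (-0.57, under 5 CPM). Both were lower in Unc80 G/G. No other gene of these lists was past 1.2-fold, which 5.74% of all genes were in either direction. The 8 markers of bulb neurons were all in the table, among them Tbr1 at 13.1 and 14.6 CPM and Cdhr1 at 566.5 and 539.9 CPM.

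The libraries held 35465913 to 38051810 reads in all, of which 24738078 to 26479648 were counted in genes according to the split means. Unc80 itself had means of 660.9 CPM for Unc80 S/S against 633.1 CPM for Unc80 G/G, which does not check the labels, since both alleles are transcribed and the recoded base is not read from gene counts.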

How the data were processed

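Trimming, alignment to the mm10 build (GRCm38) and the comparison of genotypes were done by the authors in Partek, with an aligner, annotation and test that the sources used here do not name. Per the file headers, the deposited gene table has the mean of OB-AA (labelled unedited) and of OB-GG (labelled edited). It also has 4 columns of the authors' own comparison (p-value, adjusted p-value, ratio, fold change), which were not used. The headers of the means name no unit. The means were read as CPM, and over all genes they sum to 998057 for Unc80 S/S and 998014 for Unc80 G/G. Another deposited sheet gives the count of total reads per library. The labels name an mRNA kit and the methods a total RNA kit.

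Ratios were computed from the 2 means, with no pseudocount. The table holds only genes with a mean of at least about 1.01 CPM. Each mean was written as whole reads of its 2 libraries plus an offset of 0.0001 CPM, kept where the reads were within 1e-09 of whole numbers (looser rule: 0.0001 and a chance of another pair under 0.01). The split was also run on simulated data, drawn as Poisson reads without that offset. No result of that run is given here, so it does not vouch for the split of these data. The reads were compared with edgeR 4.0.16 using library totals, without a filter. TMM factors, DESeq2 1.42.0, limma 3.58.1 on log2(CPM + 1), a minimum of 10 reads and leaving out each library were alternatives (R 4.3.3, Python 3.11.15, pandas 2.3.3, scipy 1.17.1). The minimum of 10 reads removed none of the 2221 genes, so it only repeats the main setting. The design assumed means only, and the split applies to few genes of high level.

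Members and lists were chosen with earlier results of these data known. All 9 members are named, with list genes past 1.2-fold at 5 CPM or more and otherwise up to 4 per list in list order; Acta2 and Folr1 and the genes said to be so in the text fall outside this. Exons come from GENCODE M21 (GRCm38), in which all 9 symbols named 1 gene, and promoters from RefSeq.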

Additional observations from a re-analysis of the deposited data

How the results depend on the processing

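The number of the 9 genes past 1.2-fold, 1 in the values reported, was 0 at 1.5-fold, 0 with log2(CPM + 1), 0 among genes of at least 5 CPM and 4 at 1.1-fold (the last added after seeing the data), and stayed 1 after division by the median ratio of all genes. With log2(CPM + 1) the log2 ratio of Plin4 was 0.21. The number of split genes called by edgeR, 2 (Junb and Ttr, 116 genes at an unadjusted p under 0.05), was 7 with TMM factors, 1 with DESeq2 and 0 under the looser rule, and ranged from 0 to 2 when each library was left out (2 where the more deeply counted Unc80 S/S library was dropped, 0 for any other). Ddit4 was called in none of these, with adjusted p from 0.566 to 0.999 and log2 fold changes from 0.05 to 0.28. The medians of the family and partner lists turned from 0.01 to -0.00 among genes of at least 5 CPM. The causes were not tested. No paired analysis was possible because the recovered libraries carry no replicate number. The depth limits Plin4 most, and 7 of the 9 genes have no value per library.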
